A study of Mus musculus with 18 samples.

Results

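The cytokine interleukin-6, its receptor chains, the transcription factor STAT3, the feedback inhibitor Socs3 and 5 acute phase proteins were followed through the islet transcriptomes of mice that lack TRAF2 or TRAF3 in beta cells. The genes were Il6, Il6ra, Il6st, Stat3, Socs3, Serpina3n, Fgb, Fgg, Lcn2 and Saa3, a list of 10 set by name with earlier results of these data known. All 10 were measured among 22180 genes, each by the 1 probe set annotated to it alone, except Socs3, which had 2 and was read from the brighter. Pancreatic islets came from male and female C57BL/6 mice aged 16 weeks, and total RNA was hybridised to 18 arrays in 6 groups of 3. Knockout mice were homozygous for a floxed TRAF2 or TRAF3 allele and carried RIP-Cre, in which the rat insulin promoter drives Cre recombinase, so that deletion was directed to beta cells and the other islet cells kept the gene. Controls were floxed littermates whose floxed gene and Cre status are not stated, so the part of Cre itself in a knockout difference was not tested. Each of these 3 genotypes was kept on chow or received a high-fat diet (HFD, 45% of calories as fat) for 8 weeks from 8 weeks of age. Whether the samples of a group came from separate animals is not stated, so a p-value here reflects only how far these samples spread, which may be technical.

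Interleukin-6 signals through its receptor IL6R (gene Il6ra) and the shared chain gp130 (Il6st), which activate Janus kinases and, through them, STAT3. STAT3 switches on Socs3, which shuts the receptor complex down again, and in the liver it drives the acute phase response, in which serpins, fibrinogen, lipocalin and serum amyloid A are released into blood. TRAF2 and TRAF3 belong to the complex that keeps NF-kB inducing kinase (NIK) at low levels, and Il6 is a textbook target of NF-kB.

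The bases upstream of 4 of the genes are shown, 1 for each role the results turn on: the ligand Il6, the inhibitor Socs3, the serpin Serpina3n and the fibrinogen chain Fgb. Each run is the 250 bases before the RefSeq transcription start (GRCm38.p6), at chr5:30012864-30013113 on the plus strand for Il6, chr11:117969367-117969616 on the minus strand for Socs3, chr12:104406458-104406707 on the plus strand for Serpina3n and chr3:83049864-83050113 on the minus strand for Fgb. Capitals mark matches on either strand to 4 motifs: GGGA and CC with any 4 bases between them for NF-kB, TTCNNNGAA for STAT, TTGCNNAA for C/EBP and TGANTCA for AP-1.
Il6: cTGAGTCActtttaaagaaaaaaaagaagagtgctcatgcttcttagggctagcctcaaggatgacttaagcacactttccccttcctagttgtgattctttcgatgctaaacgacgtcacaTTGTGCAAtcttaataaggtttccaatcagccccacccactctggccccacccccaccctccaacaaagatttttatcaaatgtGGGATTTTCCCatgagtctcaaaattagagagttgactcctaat
Socs3: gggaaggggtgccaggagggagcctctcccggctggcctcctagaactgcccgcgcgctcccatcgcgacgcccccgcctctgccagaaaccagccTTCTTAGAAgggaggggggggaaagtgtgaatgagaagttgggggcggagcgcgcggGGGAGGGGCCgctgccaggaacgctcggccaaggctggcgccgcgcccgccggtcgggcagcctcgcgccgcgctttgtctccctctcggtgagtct
Serpina3n: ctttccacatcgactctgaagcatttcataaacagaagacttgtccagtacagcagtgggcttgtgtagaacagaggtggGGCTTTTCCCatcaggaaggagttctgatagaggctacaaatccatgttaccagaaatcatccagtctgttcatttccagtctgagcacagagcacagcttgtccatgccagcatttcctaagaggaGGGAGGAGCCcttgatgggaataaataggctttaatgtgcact
Fgb: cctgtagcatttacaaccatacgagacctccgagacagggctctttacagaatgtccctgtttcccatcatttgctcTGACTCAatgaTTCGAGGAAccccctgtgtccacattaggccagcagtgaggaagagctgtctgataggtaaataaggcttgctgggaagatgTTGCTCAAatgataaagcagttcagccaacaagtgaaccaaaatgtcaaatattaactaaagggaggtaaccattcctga

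Upstream of Il6, NF-kB matches on both strands overlapped at -44 to -34, beside a C/EBP match at -128 to -121 and an AP-1 match at -249 to -243. The Socs3 sequence held a STAT match at -154 to -146 and an NF-kB match at -97 to -88. Serpina3n had NF-kB matches at -170 to -161 and -43 to -34, and Fgb had a STAT match at -162 to -154 with AP-1 and C/EBP matches at -173 to -167 and -80 to -73. Over the 10 genes, in windows of 300 bases that also hold the first 50 bases of the transcript, the NF-kB letters were found in 4, the C/EBP letters in 4, the STAT letters in 2 and the AP-1 letters in 2. The windows of Il6st, Stat3 and Fgg, the other fibrinogen chain of the list, held no match to any of these motifs. Of all 32851 RefSeq windows of that length, 20.7% held the NF-kB letters, 10.8% the C/EBP letters, 8.3% the STAT letters and 7.81% the AP-1 letters. A match describes the letters and is not a measured binding site.

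The deposited values are on a log2 scale, so a difference of 1 is a doubling, and the arrays had medians of 4.80 to 4.96. The 7 measured beta cell markers averaged 9.04 to 11.18 on every array, and 9 acinar markers averaged 10.40 to 12.18, so RNA of the surrounding exocrine pancreas was present too. Sex-linked transcripts read as female on 1 of 3 arrays in every chow group, on 3 of 3 in HFD controls and on 2 of 3 in both HFD knockouts. Chow control 1, read as female, was the lowest of the chow controls for 8 of the 10 genes. Chow TRAF2 knockout 1, also read as female and rich in lymphocyte markers (list score 2.16 against -0.55 and -1.08 in its group), was the highest of its group for 6 of them. Chow TRAF3 knockout 1, read as female too, was the highest of its group for 9 genes, and chow TRAF3 knockout 2 the lowest for 8. In HFD TRAF3 knockout 2 the lymphocyte score was 2.03, against -0.92 and -0.86. In islets as a whole, fewer cells of a type and less RNA per cell cannot be told apart. A change counted as passing at an adjusted p under 0.05 in limma (Benjamini-Hochberg, over the 22180 genes). The TRAF2 and TRAF3 knockouts of a diet share the same 3 control arrays.

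**Figure D1:**
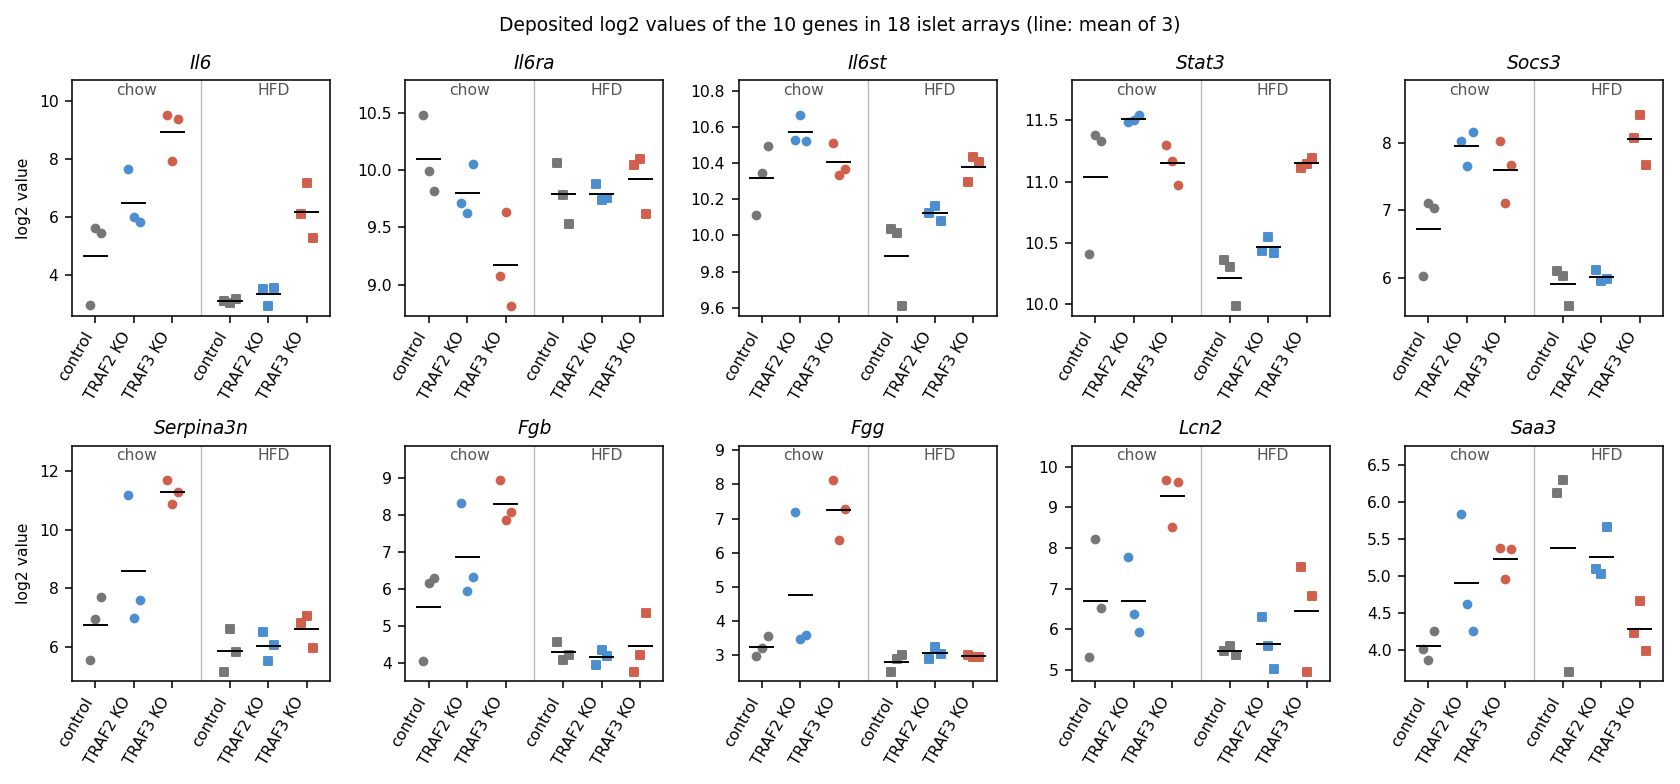
Deposited log2 values (vertical axes, each with its own scale) of the 10 genes on 18 arrays, in grey for controls, blue for TRAF2 knockouts and red for TRAF3 knockouts, with circles for chow, squares for HFD and a line at the mean of 3 arrays. The chow TRAF3 knockouts are highest for Il6, Serpina3n, Fgb, Fgg and Lcn2 by group mean, and the HFD TRAF3 knockouts are highest for Socs3.

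Il6, the ligand, was the only 1 of the 10 genes that passed in TRAF3 knockouts on both diets. On chow it read 2.97, 5.63 and 5.45 in controls, 7.65, 6.01 and 5.83 in TRAF2 knockouts and 9.52, 7.93 and 9.37 in TRAF3 knockouts. On HFD it read 3.10, 3.04 and 3.18 in controls, 3.55, 2.94 and 3.56 in TRAF2 knockouts and 6.11, 7.18 and 5.30 in TRAF3 knockouts. All TRAF3 knockout arrays lay above all controls of the same diet, and on HFD the TRAF2 knockouts overlapped the controls. The chow TRAF3 knockouts were 19.1-fold above controls (log2 difference 4.26 ± 0.66 SE, adjusted p = 0.00152), and the HFD TRAF3 knockouts 8.51-fold (3.09 ± 0.66, adjusted p = 0.0193). The chow TRAF2 knockouts also lay above all controls, but the difference of 1.81 ± 0.66 did not pass (adjusted p = 0.565). By mean the order ran from chow TRAF3 knockouts (8.94 ± 0.88 SD, n = 3) through chow TRAF2 knockouts (6.50 ± 1.00), HFD TRAF3 knockouts (6.20 ± 0.94), chow controls (4.68 ± 1.49) and HFD TRAF2 knockouts (3.35 ± 0.35) to HFD controls (3.11 ± 0.07). Only between the first and second of these did neighbouring ranges not overlap. Both control means were dimmer than any array's median, so the size of the rises is uncertain. The chow difference passed whichever array was left out (3.40 to 4.76), and was 3.40 without chow control 1. The HFD difference did not pass without HFD TRAF3 knockout 1 (3.13, adjusted p = 0.0555) or 2 (2.60, adjusted p = 0.0951), or without HFD control 1, 2 or 3 (adjusted p = 0.0554, 0.0623 and 0.0631), nor with the acinar score as a covariate (2.88, adjusted p = 0.0504).

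The receptor chains differed from control by less than 1 log2 unit in every knockout group. Il6ra, which binds the cytokine, read 10.48, 9.99 and 9.82 on chow in controls, 9.71, 9.62 and 10.05 in TRAF2 knockouts and 9.08, 9.64 and 8.81 in TRAF3 knockouts. Il6ra therefore lay lower in all 3 chow TRAF3 knockouts than in any chow control, and it fell by 0.92 ± 0.22 log2 units (adjusted p = 0.0144). This call was lost without chow TRAF3 knockout 1 (-0.87, adjusted p = 0.0600) or 3 (-0.74, adjusted p = 0.0927), without chow control 1 (-0.73, adjusted p = 0.0776), and when only the compared groups entered the fit (-0.92, adjusted p = 0.0600). On HFD the 9 arrays of all genotypes lay between 9.53 and 10.09 and overlapped, with a TRAF3 knockout difference of 0.13 ± 0.22 (adjusted p = 0.847). Il6st, the signalling chain shared by the cytokines of this family, read 10.11, 10.35 and 10.49 on chow in controls, 10.53, 10.67 and 10.52 in TRAF2 knockouts and 10.51, 10.34 and 10.37 in TRAF3 knockouts. On HFD it read 10.03, 10.01 and 9.61 in controls, 10.12, 10.16 and 10.08 in TRAF2 knockouts and 10.29, 10.44 and 10.41 in TRAF3 knockouts. Both HFD knockouts lay above all HFD controls, and the largest difference, 0.49 ± 0.13 in the TRAF3 knockouts (95% interval 0.22 to 0.77), had an adjusted p of 0.0546. It passed under 5 of 14 alternatives, which were median centring, repeated quantile normalization, trend and robust, the dimmer genes left out and the neutrophil covariate (lowest adjusted p = 0.0303), and without chow control 1 (adjusted p = 0.0345), which is outside the comparison and acts through the pooled spread.

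Stat3, the transcription factor that gp130 activates, was higher in HFD TRAF3 knockouts and did not pass on chow. Stat3 read 10.41, 11.38 and 11.33 on chow in controls, 11.49, 11.50 and 11.54 in TRAF2 knockouts and 11.30, 11.17 and 10.97 in TRAF3 knockouts. The chow ranges of controls and TRAF3 knockouts overlapped, with a difference of 0.11 ± 0.20 (95% interval -0.31 to 0.53, adjusted p = 0.820), and chow control 1 lay about 1 log2 unit below the other controls. On HFD Stat3 read 10.36, 10.30 and 9.99 in controls, 10.44, 10.55 and 10.42 in TRAF2 knockouts and 11.11, 11.15 and 11.20 in TRAF3 knockouts, where all 3 TRAF3 knockouts lay above the other 6 arrays. The HFD TRAF3 knockouts were 1.91-fold above controls (0.93 ± 0.20, adjusted p = 0.0177), a call lost without HFD TRAF3 knockout 1 (0.95, adjusted p = 0.0508) or 2 (0.94, adjusted p = 0.0624) or HFD control 3 (0.82, adjusted p = 0.0845), or with only the compared groups in the fit (0.93, adjusted p = 0.0560). The HFD TRAF2 knockouts, all above the controls as well, differed from them by 0.25 ± 0.20 (adjusted p = 0.974). By mean, Stat3 ran from chow TRAF2 knockouts (11.51) through HFD TRAF3 knockouts (11.15), chow TRAF3 knockouts (11.15), chow controls (11.04) and HFD TRAF2 knockouts (10.47) to HFD controls (10.22), and neighbouring ranges overlapped except at either end of this order.

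Socs3, the feedback inhibitor that STAT3 induces, had the lowest adjusted p of the 10 genes on HFD. On HFD it read 6.10, 6.02 and 5.57 in controls, 6.11, 5.95 and 5.98 in TRAF2 knockouts and 8.07, 8.42 and 7.68 in TRAF3 knockouts. The 3 TRAF3 knockouts lay well above the other 6 HFD arrays, which overlapped. They were 4.45-fold above controls (2.15 ± 0.29, adjusted p = 0.00118) and 4.12-fold above TRAF2 knockouts (2.04 ± 0.29, adjusted p = 0.00268), and both calls held whichever array was left out (1.97 to 2.34 and 1.86 to 2.23). On chow Socs3 read 6.02, 7.11 and 7.04 in controls, 8.03, 7.66 and 8.17 in TRAF2 knockouts and 8.03, 7.10 and 7.67 in TRAF3 knockouts. The TRAF2 knockouts lay above all chow controls (1.23 ± 0.29, adjusted p = 0.103) and the TRAF3 knockouts overlapped them (0.88 ± 0.29, adjusted p = 0.0606). The TRAF3 difference on chow passed without chow TRAF3 knockout 2 (1.13, adjusted p = 0.0262), chow control 3 (1.03, adjusted p = 0.0490) or HFD TRAF3 knockout 3 (adjusted p = 0.0479), and with the dimmer genes left out (adjusted p = 0.0384). The group means fell in the order HFD TRAF3 knockout 8.05, chow TRAF2 knockout 7.95, chow TRAF3 knockout 7.60, chow control 6.72, HFD TRAF2 knockout 6.01 and HFD control 5.90, and each neighbouring pair of ranges overlapped. The dimmer Socs3 probe set, at 3.25 to 4.90, gave 0.97 ± 0.28 for the TRAF3 knockouts on HFD (adjusted p = 0.123 over all probe sets), so the sizes read by the 2 probe sets disagree.

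Of the 5 acute phase genes, 4 were higher in the chow TRAF3 knockouts and 0 passed in the HFD TRAF3 knockouts. Serpina3n, a secreted serine protease inhibitor, read 5.57, 6.96 and 7.71 on chow in controls, 11.19, 6.98 and 7.62 in TRAF2 knockouts and 11.67, 10.86 and 11.28 in TRAF3 knockouts. All chow TRAF3 knockouts lay above all chow controls, and of the TRAF2 knockouts only array 1 reached their level. On HFD it read 5.17, 6.62 and 5.85 in controls, 6.51, 5.52 and 6.08 in TRAF2 knockouts and 6.82, 7.06 and 5.96 in TRAF3 knockouts, and the 3 groups overlapped. Serpina3n was 23.0-fold above controls in chow TRAF3 knockouts (4.53 ± 0.81, adjusted p = 0.00331, and 3.94 to 5.01 with each array left out), against 0.74 ± 0.81 on HFD (95% interval -0.98 to 2.45, adjusted p = 0.738). The HFD difference depended on the model: over 14 alternatives it ran from 0.44 to 2.57, and 0 passed (lowest limma adjusted p = 0.0843). The group means of Serpina3n ran from chow TRAF3 knockouts (11.27 ± 0.40 SD, n = 3) through chow TRAF2 knockouts (8.60 ± 2.27), chow controls (6.74 ± 1.09), HFD TRAF3 knockouts (6.61 ± 0.58) and HFD TRAF2 knockouts (6.04 ± 0.50) to HFD controls (5.88 ± 0.72), and each range overlapped the next. Serpina3n lies in a cluster of near-identical mouse serpin genes, and cross-hybridisation between them was not tested.

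Fgb and Fgg encode the beta and gamma chains of fibrinogen, the clotting protein, and lie near each other on chromosome 3. Fgb read 4.06, 6.17 and 6.31 on chow in controls, 8.32, 5.95 and 6.32 in TRAF2 knockouts and 8.93, 7.87 and 8.09 in TRAF3 knockouts. Fgg read 2.97, 3.22 and 3.55 on chow in controls, 7.19, 3.47 and 3.59 in TRAF2 knockouts and 8.12, 6.38 and 7.29 in TRAF3 knockouts. For both chains the chow TRAF3 knockouts lay above every control, and chow TRAF2 knockout 1 was among them while TRAF2 knockouts 2 and 3 were among or just beside the controls. Fgb was 6.87-fold higher in chow TRAF3 knockouts (2.78 ± 0.61, adjusted p = 0.00955) and Fgg 16.2-fold (4.02 ± 0.68, adjusted p = 0.00267), and both passed with each array left out (2.06 to 3.18 and 3.59 to 4.46). On HFD, Fgb lay between 3.77 and 5.36 and Fgg between 2.52 and 3.23 on all 9 arrays, below the array medians by group mean, and the TRAF3 knockout differences were 0.16 ± 0.61 and 0.16 ± 0.68 (adjusted p = 0.943 and 0.950). Over 13 alternatives these HFD differences ran from -0.33 to 0.58 for Fgb and from -0.04 to 1.53 for Fgg, and 0 passed. The chow control mean of Fgg (3.24) was likewise dimmer than any array's median, so its fold is uncertain. The third chain, Fga, named after its values were seen, rose by 1.77 ± 0.35 in the chow TRAF3 knockouts (adjusted p = 0.00572), also from a control mean dimmer than any array's median.

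Lcn2, an iron-scavenging lipocalin of innate defence, read 5.32, 8.22 and 6.53 on chow in controls, 7.77, 6.37 and 5.93 in TRAF2 knockouts and 9.66, 8.53 and 9.61 in TRAF3 knockouts. The TRAF3 knockouts lay above the other 6 chow arrays, although chow control 2 came close, and were 5.96-fold above controls (2.58 ± 0.70, adjusted p = 0.0269). The call was lost without chow TRAF3 knockout 1 (2.38) or 3 (2.40) or chow control 1 (1.89) or 3 (2.49), at adjusted p of 0.0606 to 0.143, with only the compared groups in the fit, and with a ductal score (1.75) or a macrophage score (2.25) as a covariate. On HFD it read 5.47, 5.59 and 5.37 in controls and 7.54, 4.96 and 6.82 in TRAF3 knockouts, where 2 arrays lay above and 1 below all controls (0.96 ± 0.70, adjusted p = 0.572).

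Saa3, the serum amyloid A made outside the liver, did not pass in any of the 12 comparisons. It read 4.01, 3.87 and 4.26 on chow in controls, 5.84, 4.62 and 4.26 in TRAF2 knockouts and 5.38, 4.96 and 5.36 in TRAF3 knockouts. On HFD it read 6.12, 6.29 and 3.71 in controls, 5.09, 5.02 and 5.66 in TRAF2 knockouts and 4.23, 4.66 and 3.98 in TRAF3 knockouts. The chow TRAF3 knockouts lay above all chow controls (1.18 ± 0.52, adjusted p = 0.170), and the HFD TRAF3 knockouts lay below 2 of the 3 HFD controls (-1.08 ± 0.52, adjusted p = 0.343). HFD control 3, the low array, also had the lowest macrophage score of its group (0.28 against 1.28 and 1.07). With only the compared groups in the fit the chow difference passed (adjusted p = 0.00813). Without HFD control 3 limma's difference was 1.18 on chow (adjusted p = 0.0256) and -1.91 on HFD (adjusted p = 0.0167). With the macrophage score as a covariate and all arrays in, these differences were 0.21 and 0.27 (adjusted p = 0.797 and 0.783).

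**Figure D2:**
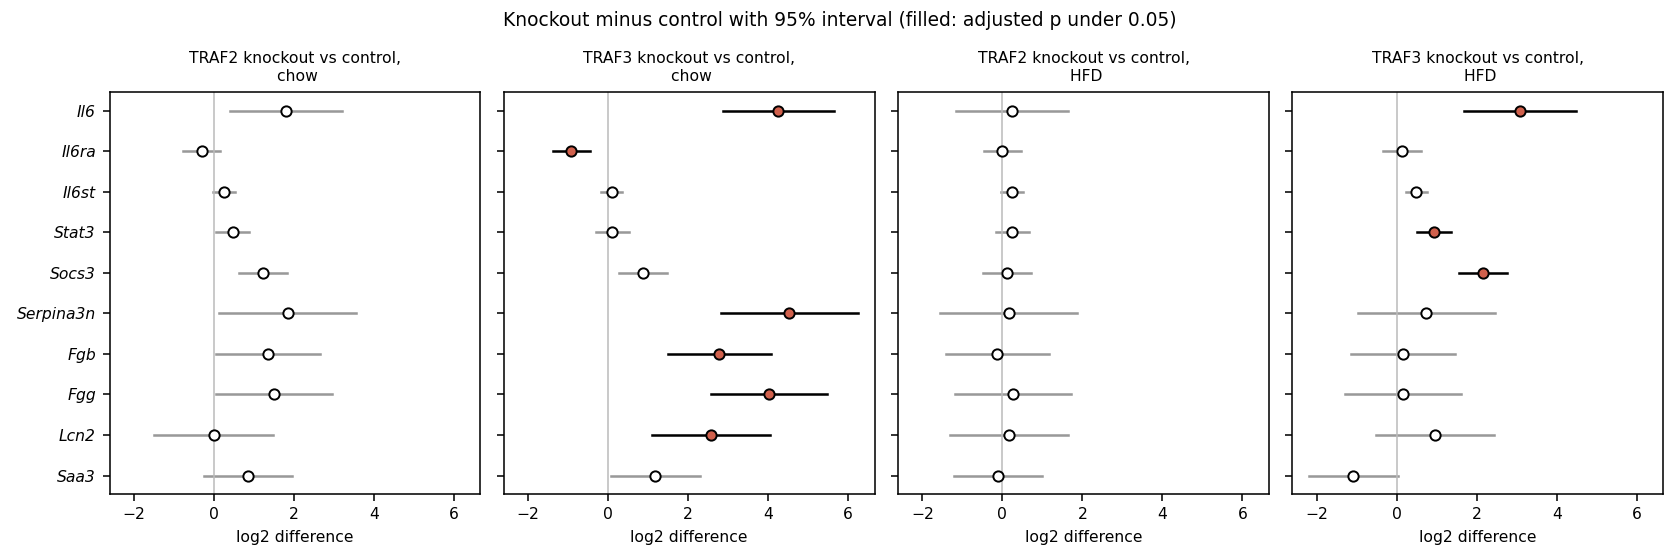
Log2 difference from control (horizontal axes) of the 10 genes in the TRAF2 and TRAF3 knockouts on chow and HFD, with limma's 95% interval. Filled points, at an adjusted p under 0.05, are 6 genes in the chow TRAF3 knockouts, 3 in the HFD TRAF3 knockouts and 0 in either TRAF2 comparison.

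Counted over the list, the chow TRAF3 knockouts had 5 of 10 genes higher and 1 lower, against 6.33% and 4.69% of all genes (11.0% in either direction). The groups did not overlap for 6 genes that were higher and 1 that was lower, against 15.9% and 15.1% of all genes, and the median difference was 1.88 over the list and -0.01 over all genes. In the HFD TRAF3 knockouts 3 of 10 were higher, against 1.68% of all genes (2.52% in either direction), and 4 were higher without overlap, against 8.61%. In the TRAF2 knockouts limma called 0 of 10 on chow, against 0.298% of all genes, and 6 had an unadjusted p under 0.05. The share of all genes at that unadjusted cut was not counted, here or in the comparisons below. On chow 4 of the 10 were higher without overlap, against 4.68%, and the median was 1.04. On HFD limma called 0 of 10 in the TRAF2 knockouts, against 0.252% of all genes, with 0 at an unadjusted p under 0.05 and a median of 0.16, and 2, Il6st and Stat3, were higher without overlap, against 7.83%. The 95% intervals there still reached 1.64 for Il6 and 1.87 for Serpina3n. With both knockouts and diets averaged, 2 of 10 were higher, against 1.84% of all genes (2.80% in either direction): Il6 (2.35 ± 0.40, adjusted p = 0.00424) and Socs3 (1.09 ± 0.17, adjusted p = 0.00240). Under 4 of the 18 omissions Serpina3n passed too, with 1.49 without chow TRAF2 knockout 1, 2.02 without 2, 1.94 without 3 and 2.06 without chow control 3. Fgg passed without chow TRAF2 knockout 1 (1.18), 2 (1.65) or 3 (1.63), and Stat3 without chow control 2 (0.53) or 3 (0.51). Among the 14 other alternatives Stat3 and Serpina3n passed under 3 each, Fgg under 3 of the 13 that keep it and Il6st under 1.

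Whether the TRAF3 difference itself changed with diet was tested as an interaction. It passed for 1 gene, Fgg, while 5.80% of all genes passed. Fgg fell by 3.85 ± 0.96 log2 units from the chow to the HFD difference (adjusted p = 0.0299). Of the 10, 8 had an unadjusted p under 0.05, a cut not counted over all genes. The same interaction was -3.79 ± 1.14 for Serpina3n (adjusted p = 0.0628), -2.62 ± 0.86 for Fgb (adjusted p = 0.0852), -1.61 ± 0.99 for Lcn2 (adjusted p = 0.389), -2.27 ± 0.73 for Saa3 (adjusted p = 0.0805) and -1.17 ± 0.93 for Il6 (adjusted p = 0.538). It had the opposite sign for Socs3 at 1.28 ± 0.40 (adjusted p = 0.0744), Stat3 at 0.82 ± 0.28 (adjusted p = 0.0918) and Il6ra at 1.05 ± 0.31 (adjusted p = 0.0581). Of these, Il6ra passed under 8 of 14 alternatives (lowest adjusted p = 0.00775), among them median centring, repeated quantile normalization, trend and robust, the dimmer genes left out, and the ductal, acinar or neutrophil covariate. Socs3 passed under repeated quantile normalization (adjusted p = 0.0377) and without the dimmer genes (adjusted p = 0.0462), and Stat3 and Fgb passed with the ductal covariate (adjusted p = 0.0460 and 0.0464). Serpina3n passed without the dimmer genes (adjusted p = 0.0407), with only the compared groups (adjusted p = 0.0165) and without the lymphocyte-rich arrays (adjusted p = 0.00531). The 2 differences behind its interaction varied with the model, however. Over 14 alternatives the chow TRAF3 difference of Serpina3n ran from 3.20, with the macrophage covariate, to 4.67. The HFD TRAF3 difference of Serpina3n ran from 0.44 to 2.57. For Fgg the call was lost under 8 of the 18 single omissions: HFD TRAF3 knockout 1 (-3.86) or 2 (-3.85), chow TRAF3 knockout 1 (-3.42) or 3 (-3.84), HFD control 2 (-3.80) or 3 (-3.76) and chow control 1 (-3.71) or 2 (-3.84). With the macrophage score as a covariate it was -1.50 (adjusted p = 0.441), and with every probe set tested its adjusted p was 0.0537. Other genes passed when 1 array was out: Stat3 (1.14) and Socs3 (1.63) without chow control 1, and Serpina3n (-3.79) and Fgb (-2.62) without chow TRAF2 knockout 1. Saa3 passed without HFD control 3 (-3.10), and Serpina3n without chow TRAF2 knockout 2 (adjusted p = 0.0450). Fgb (-3.07), Socs3 (1.46) and Il6ra (1.20) passed without HFD TRAF3 knockout 3, and Il6ra also without chow TRAF3 knockout 2 (1.28) or chow control 3 (1.19). For the TRAF2 knockout the interaction passed for 0 of 10 and 0 of all genes in limma, with 1 of the 10, Socs3 at -1.12 ± 0.40, at an unadjusted p under 0.05.

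**Figure D3:**
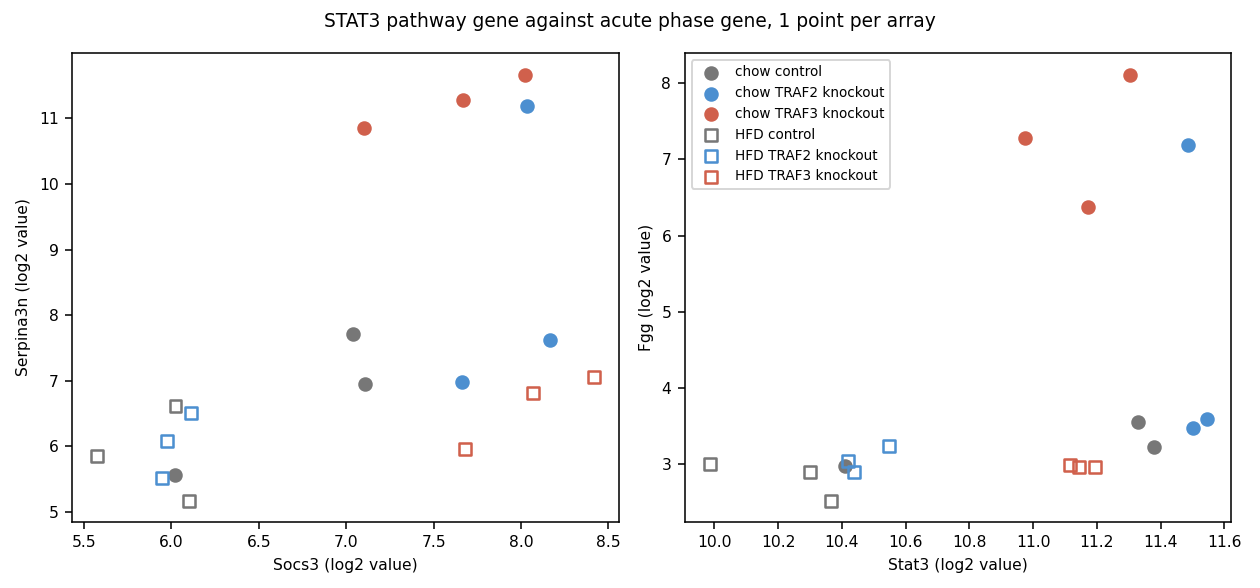
Serpina3n against Socs3 (left) and Fgg against Stat3 (right), in log2 values with 1 point per array, filled for chow and open for HFD. The HFD TRAF3 knockouts (open red) have Socs3 values of 7.68 to 8.42 with Serpina3n at 5.96 to 7.06, and the chow TRAF3 knockouts (filled red) have Serpina3n at 10.86 to 11.67.

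Between diets, several of these genes were lower on HFD in the knockouts, and none passed in the controls. The controls leaned the same way, with 1 of 10 genes higher on HFD and a median difference of -0.82. Those values were 1 and -1.37 in TRAF2 knockouts and 3 and -1.84 in TRAF3 knockouts. Passing in 1 genotype and not in another is not a difference between them, which the interactions above test. In TRAF3 knockouts 5 of 10 were lower, against 6.01% of all genes (8.67% in either direction), and 6 were lower without overlap, against 14.8%. Serpina3n fell by 4.66 ± 0.81 log2 units (adjusted p = 0.00305), Fgg by 4.30 ± 0.68 (adjusted p = 0.00182) and Fgb by 3.84 ± 0.61 (adjusted p = 0.00182), and all 3 calls held with any 1 array left out. Lcn2 fell by 2.83 ± 0.70 (adjusted p = 0.0208), but not without HFD TRAF3 knockout 2 (-2.09) or chow TRAF3 knockout 1 (-2.63) or 3 (-2.66), nor with only the compared groups (adjusted p = 0.0638) or without the lymphocyte-rich arrays (adjusted p = 0.0578). Il6 fell by 2.74 ± 0.66 (adjusted p = 0.0178), but not without HFD TRAF3 knockout 1 (-2.70) or 3 (-2.30) or chow TRAF3 knockout 1 (-2.46) or 3 (-2.53), nor with only the compared groups (adjusted p = 0.0502). Il6ra was the 1 gene higher on HFD, against 2.66% of all genes, by 0.74 ± 0.22 (adjusted p = 0.0460), a call lost under 10 of the 18 omissions (log2 differences 0.56 to 0.97 over all 18). Those omissions were HFD TRAF2 knockouts 1, 2 and 3, chow TRAF2 knockout 2, HFD and chow TRAF3 knockouts 1, HFD TRAF3 knockout 2, chow TRAF3 knockout 3, and HFD and chow controls 2. It was also lost under 5 of 14 alternatives: every probe set tested, only the compared groups, the sex or ductal covariate and without the lymphocyte-rich arrays. Stat3 and Socs3 of the TRAF3 knockouts did not pass between diets (0.00 ± 0.20 and 0.46 ± 0.29, adjusted p = 0.998 and 0.394).

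In TRAF2 knockouts 4 of 10 were lower on HFD, against 1.08% of all genes (1.96% in either direction), and 7 were lower without overlap, against 12.2%. Socs3 fell by 1.94 ± 0.29 (adjusted p = 0.00237), Stat3 by 1.04 ± 0.20 (adjusted p = 0.0113), Il6 by 3.14 ± 0.66 (adjusted p = 0.0218) and Fgb by 2.70 ± 0.61 (adjusted p = 0.0326). Socs3 passed in all 18 omissions and Stat3 in all but HFD TRAF2 knockout 3 (-1.02) and chow TRAF2 knockout 3 (-1.03). Il6 did not pass without HFD TRAF2 knockout 1 (-3.24), 2 (-2.94) or 3 (-3.25) or chow TRAF2 knockout 1 (-2.57). Fgb did not pass without those arrays (-2.59, -2.79, -2.71 and -1.97) or without chow TRAF2 knockout 3 (-2.97), nor with every probe set tested (adjusted p = 0.0534), only the compared groups (adjusted p = 0.0656), the macrophage covariate (-3.22) or the lymphocyte-rich arrays out (adjusted p = 0.0802). With the macrophage covariate Serpina3n (-4.83) and Fgg (-3.38) passed as well. Il6st passed without HFD control 3 (-0.45) and under median centring (-0.52). In controls limma called 0 of 10 between diets, against 0.884% of all genes. Of the 10, 5 had an unadjusted p under 0.05, a cut not counted over all genes. Il6st and Stat3 were lower in the HFD controls without overlap, against 9.42% of all genes. Stat3 passed there under 5 of 14 alternatives (lowest adjusted p = 0.0300). Under 1 alternative each, Il6ra passed with the ductal covariate, Il6st with median centring and Serpina3n with the macrophage covariate (limma adjusted p = 0.0468). The Serpina3n difference in controls ran from -3.68 to -0.61 over these alternatives. The HFD controls were all female, and chow control 1, the female chow control, read 2.97 for Il6, 10.41 for Stat3 and 6.02 for Socs3, at or beside the range of the HFD controls. Without it, Il6 (-2.43), Il6st (-0.53), Stat3 (-1.14) and Socs3 (-1.17) were lower on HFD at an adjusted p of 0.000485 to 0.0482, and diet and sex in the remaining controls cannot be told apart. Without HFD control 3, Saa3 was higher on HFD by 2.15 (adjusted p = 0.0124).

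Set directly against each other, the knockouts differed on HFD in 1 of 10 genes, Socs3, which was higher in the TRAF3 knockouts, against 0.627% of all genes (1.05% in either direction). Il6 was 7.18-fold higher in TRAF3 than in TRAF2 knockouts on HFD at an adjusted p of 0.0509, and passed without chow TRAF2 knockout 1, chow TRAF3 knockout 2, chow control 1 or 2, which act through the pooled spread (2.84), or HFD TRAF3 knockout 3 (3.29), and under 4 of 13 alternatives (lowest adjusted p = 0.0356). Stat3 (0.68) passed without chow control 1. On chow limma called 0 of 10, against 2.01% of all genes, with 6 at an unadjusted p under 0.05, a cut not counted over all genes. Without chow TRAF2 knockout 1, however, 5 genes were higher in the TRAF3 knockouts: Il6 by 3.02, Serpina3n by 3.97, Fgg by 3.73, Fgb by 2.16 and Lcn2 by 3.12 (limma adjusted p from 1.7e-05 to 0.0276). Of these, Il6 also passed without chow TRAF3 knockout 2 (2.95) or chow control 1 (2.44), and Lcn2 without HFD TRAF3 knockout 2 or chow control 1 or 2 (each 2.58).

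The cell makeup of the samples moved with some of these results. In chow TRAF3 knockouts 6 of 7 beta cell markers were lower than in controls, against 4.69% of all genes, with list scores of -1.48 to -0.66 against 0.15 to 0.66. A score is the mean deviation of a list's genes from their means over all arrays. Macrophage markers were higher there for 2 of 9, against 6.33% of all genes (scores -0.23 to -0.01 against -1.03 to -0.98). They were lower for 3 of 9 in HFD TRAF3 knockouts (-1.18 to 0.08 against 0.28 to 1.28), where 2.52% of all genes passed in either direction. With the macrophage score as a covariate, the chow TRAF3 differences were 3.45 for Il6, 3.20 for Serpina3n, 3.03 for Fgg and 2.48 for Fgb, all passing, and the HFD difference of Socs3 was 2.56. Of the 9 hepatocyte markers 0 were higher and 1 lower in chow TRAF3 knockouts, against 6.33% and 4.69% of all genes (scores -0.32 to -0.17 against 0.01 to 0.07). Albumin read 4.81 ± 0.01 (SD, n = 3) there and 6.20 ± 0.54 in chow controls. Ductal markers, 8 in all, passed for 0 (scores 0.26 to 0.82 against -0.82 to 0.45 on chow), as did the 10 neutrophil markers (scores -0.01 to 0.06 against -0.16 to 0.08), 5 of which were dimmer than any array's median throughout. Lymphocyte markers passed for 0 of 9 in the 4 knockout comparisons, where 0.252% to 11.0% of all genes passed. On chow their scores were -1.08 to 2.16 in TRAF2 and -1.13 to 0.26 in TRAF3 knockouts, against -1.11 to -0.58 in controls. On HFD they were 0.13 to 1.35 in TRAF2 and -0.92 to 2.03 in TRAF3 knockouts, against -0.24 to 0.39. HFD TRAF2 knockouts 2 and 3, at 1.35 and 1.25, stayed in the fit described next. With chow TRAF2 knockout 1 and HFD TRAF3 knockout 2 both left out, an alternative chosen after seeing the data, Il6 on HFD was 2.60 (adjusted p = 0.0556), Stat3 0.94 (adjusted p = 0.0599) and Socs3 1.97 (adjusted p = 0.00689). The part of the lower beta cell signal in these results was not tested.

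Around the 10 genes, 90 of 101 listed genes of the pathway were measured. The lists were chosen with earlier results of these data known, so their counts describe the lists and are not an independent test. In chow TRAF3 knockouts 25 were higher (27.8% of the 90, against 6.33% of all genes) and 8 lower (8.89%, against 4.69%). In HFD TRAF3 knockouts 13 were higher (14.4%, against 1.68%) and 0 lower. In TRAF2 knockouts 3 were higher on chow (0 to 4 with 1 array left out) and 2 on HFD, with 0 lower, against 0.298% and 0.252% of all genes in either direction. The 25 became 13 without chow control 1, 14 without chow TRAF3 knockout 1, 12 without 3 and 16 with the macrophage covariate, and the 8 became 3 without chow TRAF3 knockout 1 or 3, 4 without chow control 2 or with only the compared groups, and 5 without chow control 1, chow TRAF3 knockout 2 or HFD TRAF2 knockout 2 or with every probe set tested. The 13 became 6 without HFD TRAF3 knockout 1, 5 without 2, and 7 without HFD control 2 or 3. It became 7 without the lymphocyte-rich arrays and 20 with the macrophage covariate, and the 0 lower became 5 with the ductal covariate and 1 with the macrophage covariate.

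Of 6 other ligands of the family, Il11 was higher in chow TRAF3 knockouts by 1.54 ± 0.43 (adjusted p = 0.0298), from a control mean dimmer than any array's median. The call was lost without chow TRAF3 knockout 1 or 3 or chow control 1 or 2 (1.20 to 1.99 over all omissions). Of 4 other receptor chains, the ciliary neurotrophic factor receptor Cntfr fell by 1.17 ± 0.24 there (adjusted p = 0.00721) and held in all 18 omissions, the leukaemia inhibitory factor receptor Lifr fell by 0.77 ± 0.19 (adjusted p = 0.0167) except without chow TRAF3 knockout 1, and the oncostatin M receptor Osmr rose by 1.74 ± 0.47 (adjusted p = 0.0277) except without chow TRAF3 knockout 1 or 3 or chow control 1 (1.32 to 2.26). Jak2, 1 of the Janus kinases, passed in HFD TRAF3 knockouts at 0.79 ± 0.14 (adjusted p = 0.00640), where all 3 arrays (8.44 to 8.68) lay above the controls (7.63 to 7.92). On chow Jak2 differed by -0.24 ± 0.14 (adjusted p = 0.327), and its interaction with diet passed at 1.04 ± 0.20 (adjusted p = 0.0112), in all 18 omissions too. Stat2, which acts in interferon signalling, had the opposite order. It rose by 1.82 ± 0.30 on chow (adjusted p = 0.00245) against -0.26 ± 0.30 on HFD (adjusted p = 0.752), with an interaction of -2.08 ± 0.43 (adjusted p = 0.0145), again in all 18 omissions. Smaller chow TRAF3 differences were 0.75 ± 0.19 for the receptor-shedding protease Adam17 (adjusted p = 0.0198; lost without chow TRAF3 knockout 3 or chow control 1 or 3) and -0.52 ± 0.15 for Stat5b (adjusted p = 0.0370; lost under 6 of 18 omissions, namely chow TRAF3 knockouts 1, 2 and 3, chow controls 1 and 2, and HFD TRAF2 knockout 2).

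Of 15 inhibitors of JAK and STAT signalling, Socs2 and Cish, both feedback inhibitors known as STAT5 targets, were higher in both knockouts on both diets. Both knockouts carried RIP-Cre, and the Cre status of the controls is not stated. Loss of TRAF2 or TRAF3 and presence of Cre therefore cannot be told apart in these shared rises. Socs2 lay at 10.94 to 11.15 and 10.69 to 10.71 in chow TRAF2 and TRAF3 knockouts against 8.98 to 10.10 in controls, and at 10.64 to 10.95 and 10.48 to 10.87 on HFD against 9.61 to 9.73. Its 4 differences ran from 1.05 to 1.42 (adjusted p from 0.00544 to 0.0268) and those of Cish from 0.99 to 1.35 (adjusted p from 0.00241 to 0.00663). No knockout array of either gene overlapped its controls, whereas for Socs3 the HFD TRAF2 and chow TRAF3 knockouts did. Cish passed in all 18 omissions, except in chow TRAF2 knockouts without array 3 of that group. Socs2 did not pass there without the same array, in HFD TRAF2 knockouts when any 1 of the 6 compared arrays was left out, or in HFD TRAF3 knockouts without array 1 or 2 of that group or HFD control 2. In chow TRAF3 knockouts Socs1 rose by 0.75 ± 0.20 and the STAT-binding Pias1 fell by 0.51 ± 0.13 (adjusted p = 0.0223 and 0.0189), both lost without chow TRAF3 knockout 1 or 3 or chow control 1, and Pias1 also without chow control 2.

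Of 20 genes known to respond to STAT3, 10 were higher and 2 lower in chow TRAF3 knockouts (median 0.96), against 6.33% and 4.69% of all genes. In HFD TRAF3 knockouts 10 were higher and 0 lower (median 1.15), against 1.68% of all genes higher. In TRAF2 knockouts 1 was higher on chow (median 0.88) and 0 on HFD (median 0.13), against 0.298% and 0.252% of all genes in either direction. The medians of all genes lay between -0.02 and 0.00 in the 4 comparisons. The chow count of 10 became 3 without chow control 1 or chow TRAF3 knockout 1, 2 without chow TRAF3 knockout 3 and 3 with the macrophage score as a covariate. The HFD count became 4 without HFD TRAF3 knockout 1 or HFD control 3, 3 without HFD TRAF3 knockout 2, 5 without HFD control 2 or without the lymphocyte-rich arrays, and 6 with only the compared groups. The AP-1 subunit gene Fosl2 was higher in HFD TRAF3 knockouts by 3.01 ± 0.48 (adjusted p = 0.00323) and the stress-response gene Ier3 in chow TRAF3 knockouts by 2.63 ± 0.46 (adjusted p = 0.00292), both in all 18 omissions. Ier3 also passed on HFD at 2.10 ± 0.46 (adjusted p = 0.0217), a call lost when any 1 of the 6 compared arrays was left out. Fos, the partner subunit, was higher on HFD by 2.80 ± 0.64 (adjusted p = 0.0277), a call lost without HFD TRAF3 knockout 1 or 2 or any HFD control (2.34 to 3.65). The protease inhibitor Timp1 was higher in chow TRAF3 knockouts by 2.55 ± 0.58 (adjusted p = 0.0117), except without chow TRAF3 knockout 1 or 3 or chow control 1. Many genes of this list also respond to NF-kB.

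Of 30 measured acute phase proteins of liver, 9 were higher in chow TRAF3 knockouts (7 to 9 with each array left out), against 6.33% of all genes. In the other 3 knockout comparisons 0 were higher. All-gene shares in either direction there were 2.52% in HFD TRAF3 knockouts, and 0.298% and 0.252% in chow and HFD TRAF2 knockouts. A count of 0 of 30 is close to those shares. The metalloreductase Steap4 was higher by 3.91 ± 0.48, the iron regulator Hamp by 3.30 ± 0.59, complement factor B (Cfb) by 3.12 ± 0.52 and ceruloplasmin (Cp) by 2.29 ± 0.46, with adjusted p from 0.000439 to 0.00600, and all 4 passed in every omission. The control mean of Hamp was dimmer than any array's median. The list's median was 0.13, and 21 of its genes did not pass. The interaction with diet passed for Steap4 at -3.79 ± 0.68 (adjusted p = 0.00850), in all 18 omissions, and for Cfb at -3.29 ± 0.73 (adjusted p = 0.0189), except without chow TRAF3 knockout 3. For Cp it was -2.41 ± 0.65 (adjusted p = 0.0414), a call that held in only 6 of 18 omissions: those of the 3 chow TRAF2 knockouts, HFD TRAF3 knockout 1, chow TRAF3 knockout 2 and HFD control 3. It did not pass for Hamp (-2.55 ± 0.84, adjusted p = 0.0846). Of 6 regenerating islet-derived genes 0 passed in any of the 4 knockout comparisons, where 0.252% to 11.0% of all genes passed. Reg1 and Reg2 differed in HFD TRAF3 knockouts by -0.66 ± 0.31 and -1.96 ± 1.16 (adjusted p = 0.330 and 0.464).

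**Figure D4:**
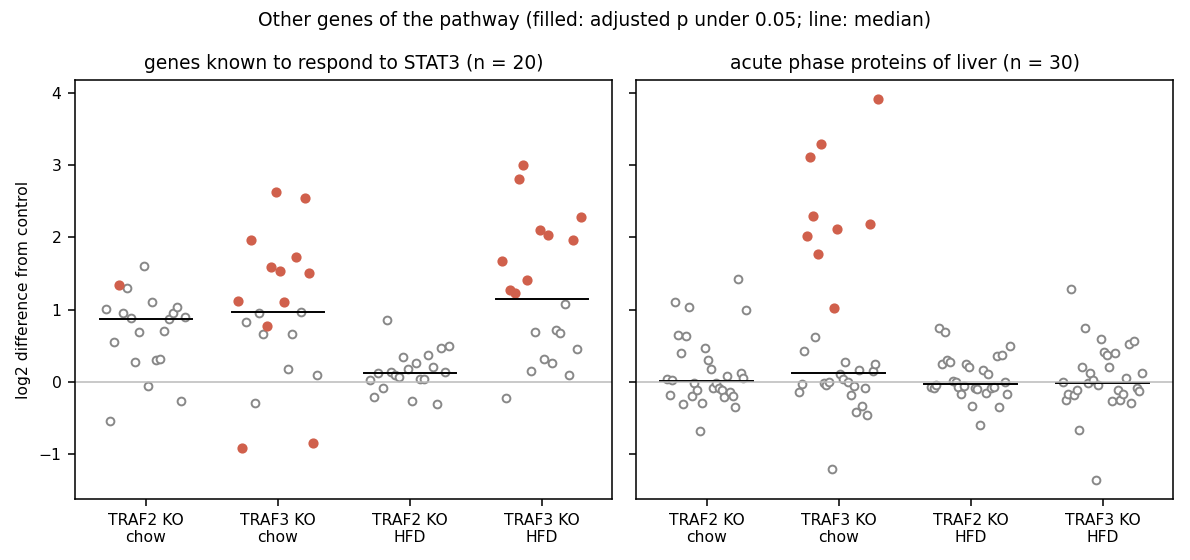
Log2 difference from control (vertical axis) of 20 genes known to respond to STAT3 (left) and 30 acute phase proteins of liver (right) in the 4 knockout comparisons, 1 point per gene, filled at an adjusted p under 0.05, with the list's median as a line. The left panel has 10 filled points above 0 for the TRAF3 knockouts on each diet, and the right panel has 9, all for the chow TRAF3 knockouts.

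Among 17537 genes searched, those whose log2 values tracked Il6 most closely over the 18 arrays were Ier3 (Pearson r = 0.964), the ubiquitin ligase gene Rnf19b (0.959) and the cyclooxygenase gene Ptgs2 (0.959). For Socs3 they were Arid5a (0.970), Fosl2 (0.967) and Bhlhe40 (0.954), and for Serpina3n they were Mlkl (0.955), Impg2 (0.953) and Rnf213 (0.953). These values follow the group means, and the arrays share their groups. After subtracting group means, r was 0.779, 0.840 and 0.919 for the Il6 genes, 0.858, 0.875 and 0.797 for the Socs3 genes and 0.882, 0.908 and 0.872 for the Serpina3n genes. The genes were picked by r over the same arrays, so these second values are raised by the selection and are not independent of it. Ptgs2 read 8.75 to 10.10 in chow TRAF3 knockouts and 7.19 to 9.78 in HFD TRAF3 knockouts, against 4.28 to 6.86 and 5.36 to 5.76 in their controls. Fosl2, like Socs3, was highest by group mean in HFD TRAF3 knockouts (10.11), and Mlkl, like Serpina3n, in chow TRAF3 knockouts (8.46). Impg2 lay below the median of every array by mean in all 6 groups.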

How the data were processed

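Total RNA (250 ng) of islets was labelled with biotin and measured on 18 arrays. The authors deposited 1 log2 value per probe set and array. Per the submitters' processing notes RMA, which corrects background, quantile-normalizes and summarises probes, and limma were used, without versions. Joint normalization of the 18 arrays and a genome build are not given in the sources used here. The values were used as deposited (41345 probe sets, 0 missing, 0 identical columns). Probe sets annotated to exactly 1 symbol were kept (23521), and the one with the highest mean over 18 arrays stood for a gene, which left 22180 genes. The precision is limited by 3 arrays per group, which correlated at 0.9595 to 0.993 within groups across genes.

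One fit of 6 group means (lmFit and eBayes, limma 3.58.1, R 4.3.3, with 12 residual and 3.69 prior degrees of freedom) gave 12 two-sided comparisons, each adjusted by Benjamini and Hochberg over 22180 genes. The procedure was run on simulated data with independent normal noise and changes placed only in the chow TRAF3 knockouts. That simulation held no differences of sex or cell makeup and no outlier arrays, so it does not cover them. SE is limma's moderated standard error, and SD is taken over 3 arrays. Members, gene lists, motifs and the naming rule were chosen with earlier results of these data known. Named besides the members were up to 4 passing genes per list with the largest change, or its first 2 where none passed, and the 3 genes most like Il6, Socs3 and Serpina3n. The likeness search left out placeholder, clone-like, olfactory, immunoglobulin and small RNA symbols. Expression of the floxed TRAF3 gene was left out. Promoter sequences are RefSeq's (GRCm38.p6), and all 10 genes matched by symbol.

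Alternatives were median centring, repeated quantile normalization, eBayes with trend and robust, the dimmer genes left out, every probe set tested, probe sets averaged, only the groups compared, the replicate number as a block, 5 covariates (a sex score and ductal, acinar, macrophage and neutrophil scores) and each array left out in turn. Leaving out 2 lymphocyte-rich arrays together was chosen after seeing the data. Same-numbered samples did not deviate together throughout (45 pairs, correlation of deviations -0.549 to 0.529, median 0.03, 16 over 0.1), and no pairing was assumed in the main fit. Chow TRAF2 knockout 3 correlated negatively with every other array numbered 3 (-0.387 to -0.191). Those other arrays all correlated positively with each other (0.132 to 0.529). A shared source of same-numbered samples was not tested.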

Additional observations from a re-analysis of the deposited data

Results flagged for a closer look

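The TRAF3 knockout difference of Fgg, the fibrinogen gamma chain, changed between diets by -3.85 on the log2 scale (limma's interaction, SE 0.96, adjusted p = 0.0299). It was flagged because this test passed for it alone of the 10 genes. That share is close to the 5.80% of all genes that passed, and Serpina3n had a similar interaction (-3.79) that did not pass. The Fgg difference was 4.02 on chow, where 3 of 3 knockout arrays lay above all controls, and 0.16 on HFD, where the ranges overlapped. All 9 HFD arrays read 3.23 or less for Fgg, dimmer than any array's median, so the size of a difference there is uncertain. The interaction ran from -4.29 to -3.42 with 1 array left out and missed the threshold in 8 of these 18 fits. It also missed it with the macrophage score as a covariate and with every probe set tested. Chow TRAF2 knockout 1 at 7.19, read as female and rich in lymphocyte markers, lay among the chow TRAF3 knockouts, and the other 14 arrays read 3.59 or less.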

How the results depend on the processing

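Of 23 passing differences among 120 (10 genes in 12 comparisons), 14 kept their sign and call under every alternative fitted and 12 whichever 1 array was left out. Among these 12 were Il6, Serpina3n, Fgb and Fgg in chow TRAF3 knockouts and Socs3 in HFD TRAF3 knockouts. No passing difference changed sign. There were 36 changes of sign among differences that passed neither as reported nor under the alternative. Leaving out the dimmer genes (11090 kept) also removed 4 of the 10 members. The count of members called for both knockouts together was 2, and 4 without the dimmer genes, with the macrophage covariate or without the lymphocyte-rich arrays. The TRAF3 count on HFD was 3, and 1 without the lymphocyte-rich arrays. For the diet dependence of the TRAF3 difference the count was 1. It was 2 with the replicate number as a block, which added Il6ra, and under median centring, trend and robust, only the groups compared, the acinar or neutrophil covariate, or without the lymphocyte-rich arrays. It was 3 under repeated quantile normalization or without the dimmer genes, 4 with the ductal covariate, and 0 with every probe set tested or the macrophage covariate. HFD against chow gave 0 in controls, but 2 under median centring or the ductal covariate and 1 under trend and robust, the macrophage or neutrophil covariate or without the dimmer genes. It gave 4 in TRAF2 knockouts (2 without the dimmer genes) and 6 in TRAF3 knockouts (3 without the dimmer genes or with only the groups compared). TRAF3 against TRAF2 knockouts gave 0 on chow (1 without the dimmer genes or with the sex or acinar covariate, 5 without the lymphocyte-rich arrays) and 1 on HFD (2 under either normalization, only the groups compared or the macrophage covariate). The block changed no other count by over 1.5 times. With 1 array left out the counts ran from 0 to 0 (TRAF2 on chow), 4 to 7 (TRAF3 on chow), 0 to 0 (TRAF2 on HFD), 1 to 4 (TRAF3 on HFD), 2 to 4 (both knockouts), 0 to 4, 1 to 5 and 3 to 6 (diet in controls, TRAF2 and TRAF3 knockouts), 0 to 0 and 0 to 4 (diet dependence of TRAF2 and TRAF3) and 0 to 5 and 1 to 3 (TRAF3 against TRAF2 on chow and HFD). The causes were not tested. Signals below the array medians, as for Fgg and Fgb in the HFD groups and Il6 in HFD controls and TRAF2 knockouts, limit the size of differences that could be seen.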

Other observations

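Between diets, the genes known to respond to STAT3, a list chosen with earlier results of these data known, were counted by genotype. Of 20, 0 were higher and 6 lower on HFD in TRAF2 knockouts (against 1.08% of all genes lower), among them Ier3 (-2.54, limma adjusted p = 0.00947, passing in all 18 omissions), while in TRAF3 knockouts 3 were higher and 4 lower (against 2.66% and 6.01%). With 1 array left out the lower count ran from 3 to 7 in TRAF2 knockouts, and in TRAF3 knockouts the higher count ran from 1 to 6 and the lower count from 1 to 6. In controls limma called 0 of 20, against 0.884% of all genes, with a median of -0.41. Directly compared on HFD, 6 of the 20 were higher in TRAF3 than in TRAF2 knockouts, against 0.627% of all genes, and 0 lower. Of the 30 acute phase proteins of liver, 7 were lower on HFD than on chow in TRAF3 knockouts (against 6.01% of all genes), Steap4 (-3.63), Hamp (-3.55) and Cfb (-2.80) among them, each passing in all 18 omissions. Stat2 was also lower on HFD in TRAF3 knockouts, by -2.56 (adjusted p = 0.000286), and Jak2 was lower on HFD in TRAF2 knockouts, by -0.79 (adjusted p = 0.00901), except without chow TRAF2 knockout 3.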
